A study of Drosophila melanogaster with 16 samples.

Results

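The proteasome genes of the fly head were read here across heads that made α-synuclein in the glia, the neurons, all of these cells or none. Members were taken by symbol: every gene of the table whose symbol begins with Prosalpha, Prosbeta, Rpn or Rpt followed by a digit. These were 46 of 12286 genes. Of them, 32 are the constitutive subunits, with 7 α and 7 β subunits of the 20S core, 10 subunits of the 19S base and 8 of the 19S lid. The other 14 are paralogs whose symbols carry a T or R suffix, among them genes known for expression in the male germ line, and they are called testis paralogs below. The gene CG30382, a close copy of Prosalpha1 whose current symbol in the reference gene name table is Prosalpha1R, fell outside the symbol rule and is given beside Prosalpha1.

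The 26S proteasome degrades proteins that carry ubiquitin chains. Its 20S core is a barrel of stacked rings, in which α subunits form the gated outer rings and β subunits the inner rings with the proteolytic sites. The 19S particle caps the barrel: its base holds the Rpt ATPases that unfold the substrate and the receptors for ubiquitin, and its lid holds the deubiquitinase Rpn11. In fly spermatogenesis, germline copies such as Prosalpha6T stand in for the general subunits, and the system is of long-standing interest in α-synuclein biology because misfolded α-synuclein is among its substrates.

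The study compared 4 genotypes. Control flies were SybQF2, RepoGAL4/+, carrying both drivers and no α-synuclein. Glia flies were SybQF2, RepoGAL4/UAS-Syn, neuron flies were SybQF2, RepoGAL4, QUAS-Syn/+, and the flies called both were SybQF2, RepoGAL4, QUASSyn/UAS-Syn. Repo drives the GAL4 system in all glia and Synaptobrevin (Syb) drives the Q system in all neurons, so every group carried both drivers. Flies were 10 days old, and a sample was the heads of 6 flies, 3 males and 3 females. The table held 13 of the 16 samples: 3 control, 3 glia, 3 neuron and 4 both. The fourth control, the third glia and the fourth neuron sample were not analysed here, and the RNA of the transgene itself was not analysed here. P-values measure the spread between such pools of heads. In whole heads, fewer cells of a type and less RNA per cell cannot be told apart.

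Libraries held 2808960 to 4767799 reads in genes, and the 32 constitutive subunits together took 0.144% to 0.290% of them. The defining markers of neurons, glia and photoreceptors were found in every library. Glia 2 stood apart: its 17 ovary and eggshell markers (of 26 listed) summed to 6598 normalised counts against 376 to 1197 in the 12 others, and its 13 neuron markers summed to 14870 against 24505 to 39239. The oocyte gene osk was at 1598 in glia 2 and at most 191.0 elsewhere, and the eggshell gene Vm26Aa was at 789 there, at most 67.6 in the control and other glia libraries and at 0 in all neuron and both libraries.

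The constitutive subunits were expressed within a narrow range. Per kilobase of exon, control levels ran from 98.4 ± 9.8 (SD, n = 3) for the lid subunit Rpn9 to 214.6 ± 25.4 for the α subunit Prosalpha2, a range of 2.18-fold over 31 subunits, Prosalpha1 left out because its reads were divided with CG30382. The next highest were Prosalpha7 at 207 ± 16.5 and Prosbeta5 at 204 ± 11.6, and the next lowest were the lid subunits Rpn7 at 108 ± 14.4 and Rpn3 at 113 ± 18.2. The median level per kilobase was 184 for 13 core subunits and 132 for the 18 subunits of the 19S particle. These are levels per length on the normalised count scale, and neighbours in this order did not differ beyond their spread. The 32 genes lie on all the large chromosome arms, 10 of them on 2R, 9 on 3R, 5 on 3L, 4 on 2L and 4 on X.

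**Figure D1:**
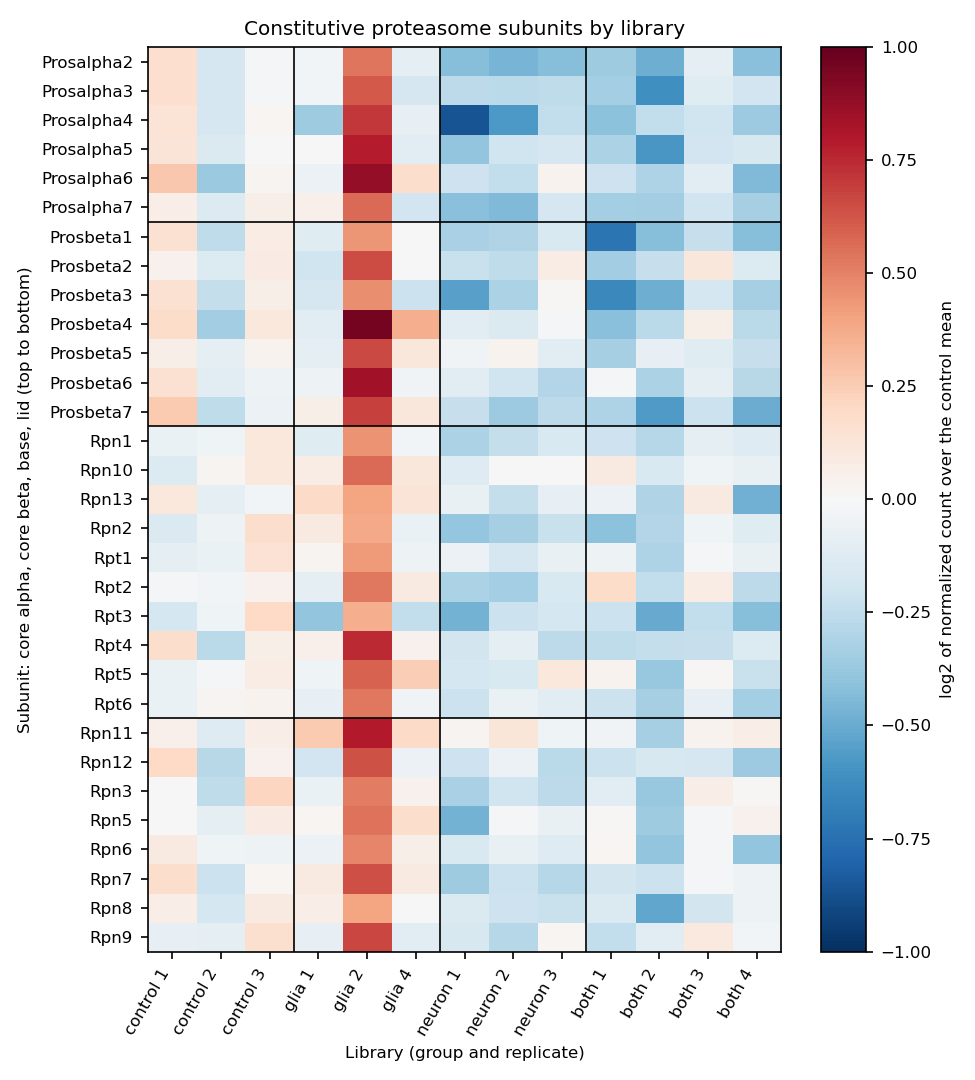
Level of 31 constitutive subunits (rows, by place in the particle; Prosalpha1 left out) in the 13 libraries (columns), as log2 of the normalised read count over the control mean. The glia 2 column is above the control mean in every row, at a median ratio of 1.48, and most neuron and both columns are below it.

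Every constitutive subunit had its highest library in glia 2. The share of all genes highest in glia 2 was not computed, so the trait cannot be called particular to the proteasome. The median ratio to the control mean over the 31 subunits other than Prosalpha1 was 1.48 there, from 1.28 for Rpt3 to 1.94 for Prosbeta4. In the 12 other libraries the median ratio lay between 0.802 in both 2 and 1.05 in control 1. As library medians of the 32 subunits, normalised read counts were 199, 172 and 192 in control libraries 1, 2 and 3 and 189.9, 294 and 182 in glia libraries 1, 2 and 4. They were 162, 159 and 170.1 in neuron libraries 1, 2 and 3 and 167, 152, 181 and 161 in both 1 to 4. The ovary markers were highest and the neuron markers lowest in the same library, and their part in this result was not tested.

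The libraries without the neuronal transgene (control and glia) lay above those with it (neuron and both) for most subunits, with overlap. With the neuronal transgene present, 5 of 45 members tested fell (adjusted p under 0.05, limma with Benjamini-Hochberg adjustment over 12181 genes) and none rose (background 5.74%). That is 11.1% of the members against a background of 7.66% of all genes that were lower. The 5 were the core subunits Prosalpha2, Prosalpha7, Prosbeta1 and Prosbeta7 and the base subunit Rpn2. Of the 32 constitutive subunits, 31 had a fold below 0, against 57.7% of all genes, and 22 (68.8%) were lower at an unadjusted p under 0.05, against 19.5% of all genes. The median log2 fold was -0.27 over the constitutive subunits, -0.36 over the core and -0.26 over the 19S particle, against -0.07 over all genes tested.

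Among the α subunits, which form the gate of the core, Prosalpha2 (FBgn0086134, chromosome arm 3R, 12431321 to 12432556, plus strand of BDGP6) changed most clearly. Prosalpha2 had normalised read counts of 222, 175 and 195 in the control libraries 1, 2 and 3 and of 194, 285 and 185 in the glia libraries 1, 2 and 4. Its counts were 147, 143 and 147 in the neuron libraries 1 to 3 and 155, 141, 185 and 148 in the both libraries 1 to 4. Neuron and both libraries lay below all control and glia libraries with the exception of both 3, which was above control 2. The log2 fold was -0.45 (SE 0.11, adjusted p = 0.0253, 7 libraries against 6). For Prosalpha7, control libraries 1, 2 and 3 gave normalised read counts of 212, 184 and 211, and glia libraries 1, 2 and 4 gave 209, 299 and 177. Neuron libraries 1 to 3 gave 152, 149 and 179.7, and both libraries 1 to 4 gave 159.7, 159, 176 and 160.2. Only neuron 3 reached the range of the other side, above glia 4 alone. Its log2 fold was -0.39 (SE 0.11, adjusted p = 0.0393).

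Prosalpha3, Prosalpha4, Prosalpha5 and Prosalpha6 had folds of similar size that did not pass the threshold. Prosalpha1 is given with its copy CG30382 below. Prosalpha5 was the only constitutive subunit whose groups did not overlap: it was at 157 to 299 in the control and glia libraries and at 116 to 155 in the neuron and both libraries. Over all genes, 1.34% were separated in this direction and 2.69% in the other. Its log2 fold was -0.39 (SE 0.14, adjusted p = 0.0755). Prosalpha4 had a log2 fold of -0.47 with a wider error (SE 0.16, adjusted p = 0.0649), its lowest libraries being neuron 1 at 91.3 and neuron 2 at 112. Prosalpha3 and Prosalpha6 had log2 folds of -0.35 and -0.36 (adjusted p = 0.0813 and 0.129).

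Among the β subunits, Prosbeta7, a subunit of the inner ring without a proteolytic site, and Prosbeta1, which carries the caspase-like site, fell. Prosbeta7 had normalised read counts of 237, 165 and 189.5 in the control libraries 1, 2 and 3 and of 205, 317 and 214 in the glia libraries 1, 2 and 4. Its counts were 168, 154 and 164 in the neuron libraries 1 to 3 and 159.7, 133, 169.6 and 139.9 in the both libraries 1 to 4. Both 3 and neuron 1 lay just above control 2, and otherwise the groups were apart. The log2 fold of Prosbeta7 was -0.47 (SE 0.12, adjusted p = 0.0274), and the gene (FBgn0250746) lies on chromosome arm 3R, 5357012 to 5358364, minus strand. For Prosbeta1, control libraries 1, 2 and 3 gave normalised read counts of 179, 135 and 169.7, and glia libraries 1, 2 and 4 gave 148, 219 and 162. Neuron libraries 1 to 3 gave 129, 131 and 145, and both libraries 1 to 4 gave 97.1, 119.6, 137 and 119.7. Control 2 lay below neuron 3 and both 3, and the remaining libraries were separated. Its log2 fold was -0.40 (SE 0.12, adjusted p = 0.0404).

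The other catalytic subunits did not pass. Prosbeta2, with the trypsin-like site, had a log2 fold of -0.22 with a 95% interval of -0.51 to 0.07 (adjusted p = 0.284). Prosbeta2 had normalised read counts of 185, 163 and 189.5 in the control libraries 1, 2 and 3 and of 156, 281 and 179 in the glia libraries 1, 2 and 4. Its counts were 153, 150.1 and 188 in the neuron libraries 1 to 3 and 140.5, 153, 193 and 163 in the both libraries 1 to 4. Of the 7 neuron and both libraries of Prosbeta2, neuron 3 lay within the control range, both 3 was above it and the other 5 were below it, both 4 only just (163.11 against 163.25 in control 2). Prosbeta5, with the chymotrypsin-like site, had a log2 fold of -0.23 (interval -0.46 to 0.0069, adjusted p = 0.166). For Prosbeta5, control libraries 1, 2 and 3 gave normalised read counts of 242, 217 and 237, and glia libraries 1, 2 and 4 gave 217, 366 and 252. Neuron libraries 1 to 3 gave 226, 237 and 214, and both libraries 1 to 4 gave 184, 219, 214 and 198. Neuron 1 and 2 of Prosbeta5 lay within the control range, and both 1 and both 4 were lowest. Prosbeta3, Prosbeta4 and Prosbeta6 had log2 folds of -0.35, -0.35 and -0.31, with adjusted p-values of 0.105, 0.152 and 0.139.

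In the base, Rpn2, the scaffold to which the ubiquitin receptor Rpn13 binds, was the member past the threshold. Rpn2 had normalised read counts of 450.1, 481 and 563 in the control libraries 1, 2 and 3 and of 531, 648 and 476 in the glia libraries 1, 2 and 4. Its counts were 381, 397 and 427 in the neuron libraries 1 to 3 and 374, 406, 484 and 458 in the both libraries 1 to 4. The neuron libraries were below all control and glia libraries, while both 3 and both 4 lay among them. The log2 fold was -0.33 (SE 0.09, adjusted p = 0.0376). Rpn1, which docks shuttle proteins, had a log2 fold of -0.26 (adjusted p = 0.0776), and the receptors Rpn13 and Rpn10 had -0.28 and -0.17 (adjusted p = 0.0742 and 0.221). With the batch, which equals the replicate number, as a block, Rpn13 passed as well (log2 fold -0.30, adjusted p = 0.0497). The 6 Rpt ATPases had log2 folds from -0.33 for Rpt4 to -0.17 for Rpt1, none past the threshold.

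No lid subunit passed. The 8 lid folds ran from -0.33 for the scaffold subunit Rpn7 (adjusted p = 0.0584) to -0.18 for Rpn9 (adjusted p = 0.347). The deubiquitinase Rpn11 removes ubiquitin chains from substrates as they enter. For Rpn11, control libraries 1, 2 and 3 gave normalised read counts of 156, 138 and 158, and glia libraries 1, 2 and 4 gave 181, 261 and 172. Neuron libraries 1 to 3 gave 153, 164 and 146, and both libraries 1 to 4 gave 147, 119.6, 155 and 157. The 3 glia libraries of Rpn11 were the highest of the 13, and the control libraries overlapped those with the neuronal transgene. Its log2 fold was -0.22 (SE 0.11, adjusted p = 0.177).

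**Figure D2:**
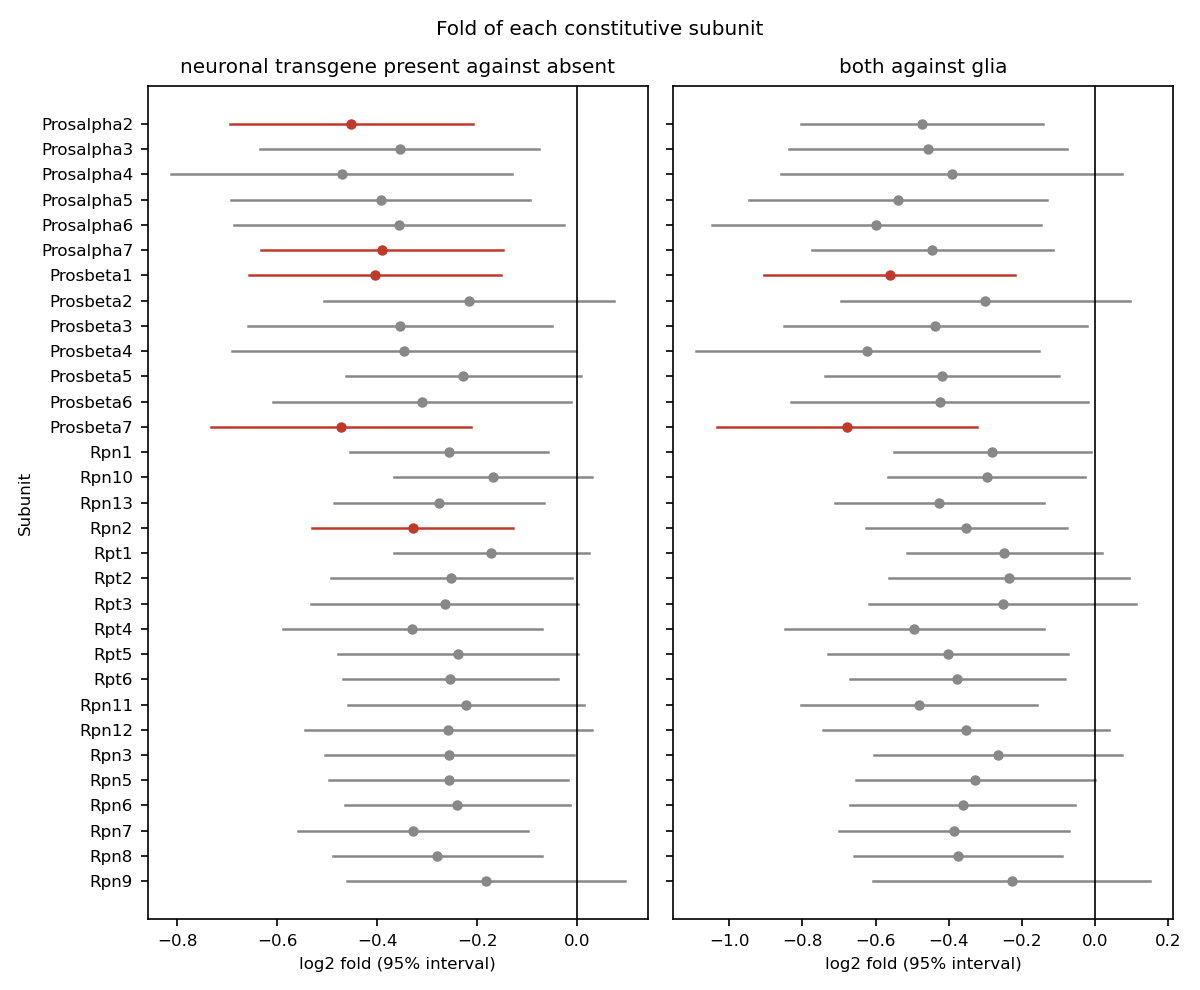
Log2 fold of each of 31 constitutive subunits with its 95% interval (limma, all 13 libraries), for the neuronal transgene present against absent (left) and both against glia (right). All points lie below 0, and the red ones, 5 on the left and 2 on the right, have an adjusted p under 0.05.

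Most subunits were lower with the neuronal transgene in every batch, but which members passed turned on single libraries. Within batches 1 to 4, the median log2 difference of the constitutive subunits between libraries with and without the neuronal transgene was -0.21, -0.475, -0.155 and -0.187, and 30, 32, 29 and 31 of the 32 subunits were lower. The share of all genes lower within each batch was not computed. In the fit of all libraries, 57.7% of all genes had a fold below 0. Batch 2 holds glia 2, and batch 4 holds only glia 4 and both 4. Without glia 2 the median log2 fold was -0.18 and 3 members passed (Prosalpha2, Prosalpha7 and Prosbeta7), and without glia 2 and control 1 it was -0.17 and none passed. No member passed without control 1, neuron 1, neuron 3 or both 2, 1 without neuron 2, 2 without both 1 and 3 without control 2 or both 4, whereas 10 subunits passed without glia 4. Without glia 1, 9 subunits passed, and without control 3, 2 did (Prosalpha2 and Prosbeta7). Prosalpha2 passed in each of the 9 runs that passed any member. These counts are given without the share of all genes passing in each run, so they show only how calls moved. In limma's voom on the whole reads, Prosalpha7 (adjusted p = 0.0510) and Prosbeta1 (adjusted p = 0.0507) missed the threshold. Markers of cell types moved with the same contrast, in which 5.74% of all genes rose and 7.66% fell. Of the neuron markers 9 of 13 rose (median log2 fold 0.53), of the photoreceptor markers 12 of 12 (0.72) and of the glia markers 1 of 9 (0.21). Of the muscle markers 10 of 14 fell (-0.60), of the ovary markers tested 8 of 16 (-2.56) and of the midgut markers 5 of 12 (-2.72). Of the testis markers tested 4 of 24 fell (-2.07), and 14 of 15 markers of the male accessory gland and ejaculatory bulb fell (-4.31). Photoreceptor sums were 96858 to 105885 in control, 52701 to 103660 in glia, 122441 to 176041 in neuron and 129570.2 to 170548 in both. Muscle sums were 64657 to 81128 in control, 44382 to 70707 in glia, 37615 to 64287 in neuron and 29347 to 47700.4 in both. Midgut sums were 4513 to 11797 in control, 13151 to 23861 in glia, 1229.98 to 7472 in neuron and 336 to 10955 in both. Male gland sums were 7156 to 15499 in control, 2505 to 4305 in glia, 2665 to 3884 in neuron and 4293 to 5437 in both. The part of these markers in the fall of the subunits was not tested.

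Both against glia asks what the neuronal transgene adds to the glial one. Here 2 members fell, the β subunits Prosbeta7 (log2 fold -0.68, SE 0.16, adjusted p = 0.0291) and Prosbeta1 (-0.56, SE 0.16, adjusted p = 0.0494). That is 4.44% of the members against a background of 4.75%. In Prosbeta7 all 4 both libraries, at 133 to 170, lay below all 3 glia libraries, at 205 to 317, and in Prosbeta1 the 4 both libraries, at 97.1 to 137, lay below the 3 glia libraries, at 148 to 219. Subunits that did not pass were separated in this way too. Among them were Prosalpha2 (at most 185.25 in both, at least 185.39 in glia) and Rpn11 (157.32 and 172.38). The share of all genes so separated was not computed. With the batch as a block Prosbeta1 did not pass (adjusted p = 0.0577), nor did it in voom (adjusted p = 0.0586), and with the block Rpn13 passed in its place (log2 fold -0.47, adjusted p = 0.0472).

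Below the threshold, the subunits of the core and the 19S particle lay on the same side of 0 in this contrast. All 32 constitutive folds were below 0, against 56.3% of all genes, and 23 (71.9%) were lower at an unadjusted p under 0.05, against 15.1%. The median log2 fold was -0.40 over the constitutive subunits, -0.46 over the core and -0.35 over the 19S particle, against -0.07 over all genes. Rpn11 had a log2 fold of -0.48 (adjusted p = 0.0651), Rpn13 -0.43 (adjusted p = 0.0659) and Prosalpha2 -0.47 (adjusted p = 0.0741). Without glia 2 the median was -0.20 and no member passed, and none passed without both 1, both 2 or both 4. When a control or a neuron library was left out, 1 passed, and 6 passed without glia 1 and 9 without glia 4. The share of all genes passing in each of these runs is not given, so the counts show only how calls moved. Within batches 1, 2 and 4 the median difference was -0.16, -0.89 and -0.19, each from 1 library against 1. In the same contrast 379 of 12181 genes rose and 578 (4.75%) fell. Beside this background, 10 of 12 photoreceptor markers rose (median 0.90) and 4 of 13 neuron markers rose (0.65). Of the ovary markers 2 of 16 fell, of the midgut markers 5 of 12 and of the muscle markers 2 of 14 (medians -3.23, -4.08 and -0.57). Of the male gland markers 1 of 15 rose and 0 fell (median -2.46). Among 9 glia markers and 24 testis markers, 0 passed. Their part was not tested.

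**Figure D3:**
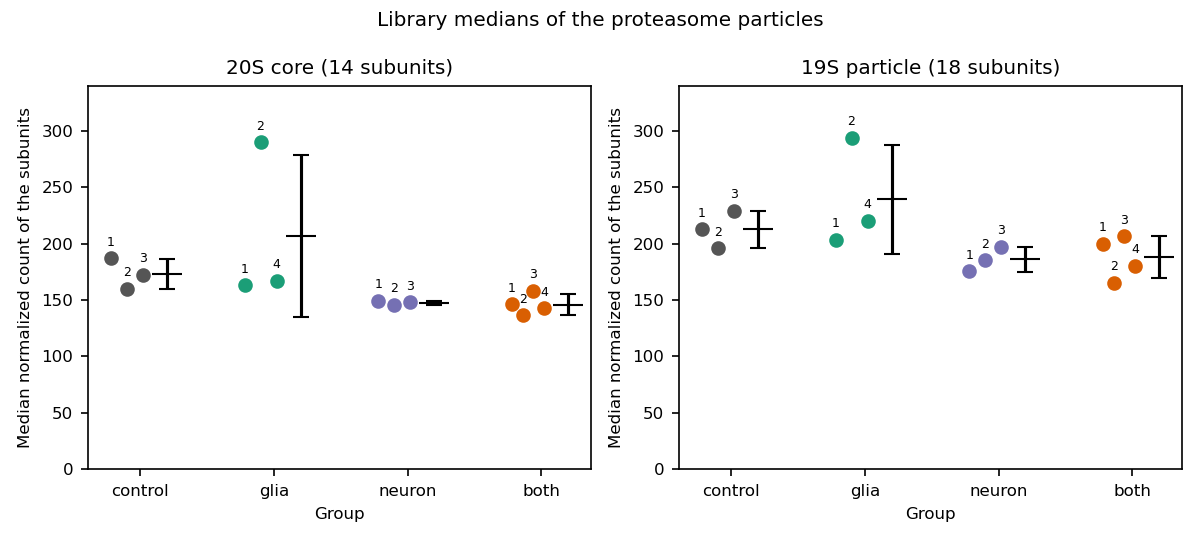
Median normalised read count of the 14 core subunits (left) and the 18 subunits of the 19S particle (right) in each library, by group; numbers are replicates and bars are mean ± SD. Glia 2, at 290.1 and 294, is the highest library on both sides, and the other glia libraries lie near control.

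Set against control, no member passed in any single genotype. In glia against control, 0 of 45 members passed, with backgrounds of 0.747% of genes higher and 0.0246% lower. At an unadjusted p under 0.05, passed by 5.55% of genes upward and 4.51% downward, 1 constitutive subunit was higher, Rpn11 (log2 fold 0.42, SE 0.16, adjusted p = 0.361), whose glia libraries at 172 to 261 lay above its control libraries at 138 to 158. The ubiquitin receptor Rpn13 was separated in the same way, at 229 to 274 in glia and 197 to 224 in control, without reaching that p, and the other 30 constitutive subunits overlapped between these groups. These 2 of 32 (6.25%) stand against 6.81% of all genes whose glia libraries all lay above their control libraries. The testis paralog Rpt6R was lower at that p (log2 fold -1.73, adjusted p = 0.367). The median log2 fold of the 32 subunits was 0.17 with 31 above 0, and without glia 2 it was -0.003. Within batch 1 the median difference was -0.12 and within batch 2, which holds glia 2, it was 0.73.

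In neuron against control, 0 members passed, as did 0% of all genes. At an unadjusted p under 0.05, Prosalpha2 (log2 fold -0.43, adjusted p = 0.367), Prosalpha4 (-0.55, adjusted p = 0.386), and Rpn2 (-0.31, adjusted p = 0.395) were lower, which is 9.38% of the 32 constitutive subunits against 8.26% of all genes. The median log2 fold of the constitutive subunits was -0.19, against -0.06 for all genes, and within batches 1 to 3 it was -0.288, -0.081 and -0.20. In both against control, 0 members passed, against backgrounds of 0.0246% higher and 0.985% lower. Prosbeta1 had a log2 fold of -0.44 (SE 0.16, adjusted p = 0.173) and Prosbeta7 one of -0.38 (SE 0.16, adjusted p = 0.236), the smallest p-values among the constitutive subunits. At an unadjusted p under 0.05, these 2 constitutive subunits (6.25%) were lower, against 12.8% of all genes. The median was -0.20 over the constitutive subunits, and -0.238, -0.212 and -0.142 within batches 1 to 3. Without control 3, the testis paralog Prosalpha6T passed as lower (adjusted p = 0.0471). That call rests on few reads, 6 each in control 1 and control 2 against 0, 2, 0 and 1 in both 1 to 4. These comparisons share the 3 control libraries. A second method on the whole reads, limma's voom, also passed no member in any of them.

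The remaining contrasts passed no member either. In glia against neuron, backgrounds were 2.66% of genes higher and 0.583% lower, and Rpn7 (log2 fold 0.55, adjusted p = 0.0735) and Prosalpha2 (0.57, adjusted p = 0.0771) had the smallest p-values. There 17 of the 32 constitutive subunits (53.1%) were higher at an unadjusted p under 0.05, against 11.7% of all genes, and the median log2 fold of 0.37 was 0.196 without glia 2, 0.205 within batch 1 and 0.763 within batch 2. Without glia 4, Prosalpha2, Prosalpha7, Rpn2 and Rpn7 passed as higher in glia, and the testis paralog Rpt4R as lower. In both against neuron the background was 0%, no member reached an unadjusted p under 0.05 (4.24% of all genes did), and the median was -0.04. For the glial transgene present against absent, the backgrounds were 0.181% and 0.00821%, no member reached that p (7.77% of all genes did), and the median of 0.10 was -0.007 without glia 2. The interaction of the transgenes had backgrounds of 0% higher and 0.0821% lower, and Rpn11 alone was lower at an unadjusted p under 0.05, as were 3.92% of all genes (log2 fold -0.52, SE 0.22, adjusted p = 0.629). Voom passed no member in these 4 contrasts.

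Prosalpha1 varied unlike the other 31 constitutive subunits, and its copy CG30382 varied in the opposite sense. Prosalpha1 (FBgn0263121, chromosome arm 2R, 7827303 to 7828678, minus strand) and CG30382 (FBgn0050382, chromosome arm 2R, 7830413 to 7831771, minus strand) lie 1734 bases apart with the gene CG18853 on the opposite strand between them, where it shares 17 exon bases with CG30382. How the authors' counting treated reads that match both copies is not given in the sources used here, so the division of reads between them is uncertain. Prosalpha1 had normalised counts of 114, 48.7 and 0 in control libraries 1, 2 and 3, 58.5, 396 and 9.76 in glia libraries 1, 2 and 4 and 153, 80.9 and 49.96 in neuron libraries 1, 2 and 3. In both 1 to 4 it had 206, 144, 121 and 0. CG30382 had 301, 325 and 335 in control, 309.5, 117 and 368 in glia, 145, 224 and 253 in neuron and 51.1, 133, 211 and 301 in both, in the same order of libraries. Where Prosalpha1 was high, in glia 2 and both 1, CG30382 was low, and the 2 libraries with no Prosalpha1 read, control 3 and both 4, had 335 and 301 of CG30382.

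Of the reads in the pair, Prosalpha1 took 77.1% in glia 2 (95% exact Clopper-Pearson interval 73.2% to 80.7%, 503 reads) and 80.1% in both 1 (73.9% to 85.4%, 201 reads). It took 2.59% in glia 4 (1.19% to 4.85%, 348 reads), 0 of 253 reads in control 3 and 0 of 312 in both 4. Taken as 3 reads of the total, these counts of 0 allow shares of up to 1.19% and 0.96%. In the other libraries the share was 27.5% and 13.01% in control 1 and 2, 15.9% in glia 1, 51.3%, 26.6% and 16.5% in neuron 1 to 3, and 52.0% and 36.3% in both 2 and 3. Intervals and limits cover counting error only. Shares differed within groups as much as between them, ranging over 0% to 27.5% in control, 2.59% to 77.1% in glia, 16.5% to 51.3% in neuron and 0% to 80.1% in both.

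The sum of the pair was steadier than either gene. Its coefficient of variation over the 13 libraries was 19.8%, against 101% for Prosalpha1 and 41.8% for CG30382, and the median over the 31 other subunits was 20.4%. Over 4260 genes with a mean level of 50 to 300, the median was 17.9% and Prosalpha1 ranked 141st from the top. The sum was 375 ± 40.04 (SD, n = 3) in control, 419 ± 81.1 (SD, n = 3) in glia, 302 ± 2.95 (SD, n = 3) in neuron and 292 ± 32.2 (SD, n = 4) in both. Fitted as 1 gene in a run chosen after the data had been seen, the sum fell with the neuronal transgene (log2 fold -0.41, SE 0.0945, adjusted p = 0.0205) and in both against glia (-0.51, SE 0.13, adjusted p = 0.0343). Without glia 2 these were -0.33 (adjusted p = 0.0198) and -0.36 (adjusted p = 0.103). The first was not past the threshold without control 1 or neuron 1 (adjusted p = 0.0553 and 0.0565). The second was not past it without both 1, both 2 or both 4 (adjusted p = 0.0910, 0.0825 and 0.0530), nor with the batch as a block (adjusted p = 0.0616). Within batches 1 to 4 the difference for the neuronal transgene was -0.496, -0.589, -0.081 and -0.324, and in both against glia it was -0.518, -0.883 and -0.324 in batches 1, 2 and 4. Prosalpha1 alone had a log2 fold of 0.87 (SE 1.43, adjusted p = 0.709) in the first contrast and CG30382 one of -0.69 (SE 0.38, adjusted p = 0.224). Per kilobase, the control sum of 393 ± 41.0 was above Prosalpha2, the highest single subunit. The flanking gene cathD varied little, from 918 to 1258 over the libraries, and phr, which shares 17 exon bases with Prosalpha1 on the opposite strand, from 64.9 to 141.

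**Figure D4:**
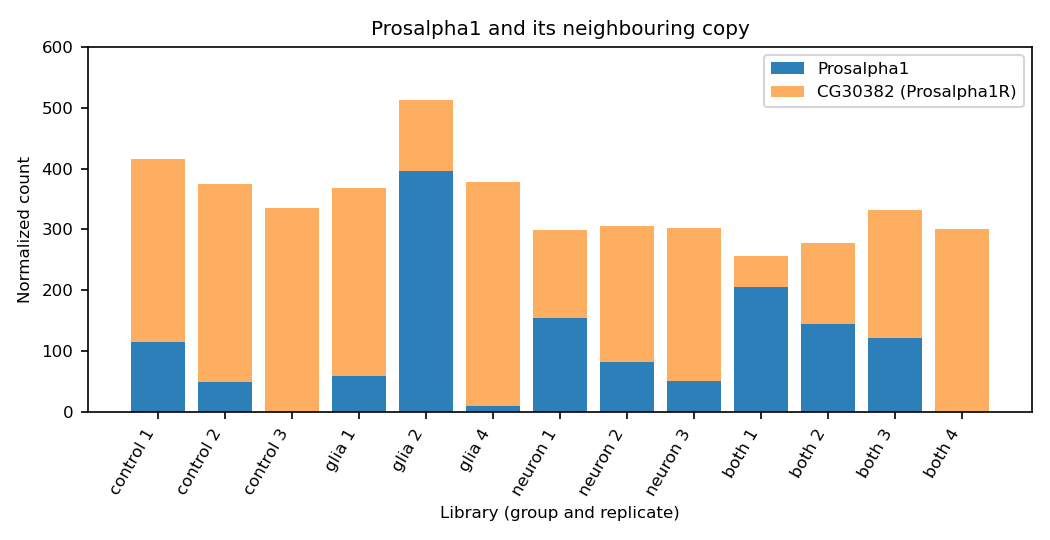
Normalised read counts of Prosalpha1 (blue) and its copy CG30382 (orange) stacked for each library, so that the bar height is the sum of the pair. The share of blue ranges from 0 in control 3 and both 4 to 80.1% in both 1, while the sum ranges over 2.0-fold.

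The testis paralogs were barely expressed. Together the 14 genes held 684 reads over the 13 libraries, and 10 of them had at most 40 reads each. Per kilobase and averaged over libraries, each stood at 0.33% (Prosbeta5R2) to 8.73% (Rpn13R) of its constitutive parent. In 6 of the 14 the annotated exons form 1 uninterrupted block, against 4 of the 32 constitutive genes. With 0 to 20 reads per gene and library, these values carry a large counting error.

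The paralogs differed in where their reads lay. Rpn13R, Prosalpha4T1, Rpt4R and Rpt3R held 447 of the 684 reads and were read in nearly every library. Rpn13R had 7, 9 and 6 reads in control, 6, 12 and 20 in glia, 11, 9 and 12 in neuron and 8, 19, 13 and 20 in both. Prosalpha4T1 had 13, 8 and 5 reads in control, 7, 0 and 6 in glia, 15, 9 and 10 in neuron and 8, 8, 12 and 9 in both, so that glia 2 was the only library without one. Rpt4R had 9, 14 and 2, then 1, 3 and 8, then 14, 10 and 16, then 8, 7, 10 and 12 reads in the same order, and Rpt3R had 5, 11 and 7, then 4, 2 and 7, then 6, 5 and 1, then 3, 8, 11 and 1. The groups overlapped in all of them.

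Copies of the β4 and β5 subunits were read chiefly in 3 libraries. Prosbeta4R1, Prosbeta4R2, Prosbeta5R1 and Prosbeta5R2 had 63 reads in all, of which 55 were in control 1, control 2 and glia 4 and 1 was in the 7 neuron and both libraries. Prosbeta4R2 had 9, 5 and 0 reads in control and 0, 1 and 6 in glia, Prosbeta5R1 had 5, 4 and 0 and then 0, 2 and 9, and neither had a read in the 7 neuron and both libraries. Prosbeta5R2 had 6, 4 and 0 reads in the control libraries and a single read each in glia 1 and both 3, and Prosbeta4R1 had 4, 1 and 0 in control and 1, 2 and 2 in glia. Prosalpha6T, the α6 copy of late spermatogenesis, had 6, 6 and 1 reads in control, 1, 1 and 5 in glia, 3, 2 and 2 in neuron and 0, 2, 0 and 1 in both. Control 3 had at most 1 read in each of these genes.

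Of the remaining paralogs, all had reads in control 1 and control 2. Prosbeta2R2 had 7, 7 and 0 reads in control and 2, 1 and 4 in glia, with 0 to 4 in the other libraries. Rpt6R had 6, 9 and 3 in control, 1, 4 and 0 in glia and 1 to 6 elsewhere. Rpn12R had 5, 7 and 1, then 0, 4 and 6, and 1 to 3 elsewhere. Prosalpha4T2 had 6, 4 and 0, then 1, 0 and 4, and 0 to 2 elsewhere. Prosalpha3T had 3 reads in control 1 and in control 2, 5 in both 2, 4 in both 4 and at most 1 elsewhere.

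In the main fit of all 13 libraries, no testis paralog passed the threshold in any contrast. In voom on the whole reads, Prosbeta4R1 passed as lower with the neuronal transgene. Prosbeta4R1, Prosbeta4R2 and Prosbeta5R1 were at 0 in the 7 libraries with the neuronal transgene and entered the test only through control and glia libraries, so that their p-values carry no weight and are not given. Without the transgene Prosbeta4R2 was at 3.96 ± 4.46 (SD, n = 6) and Prosbeta5R1 at 3.68 ± 3.83 (SD, n = 6) normalised counts, with SDs larger than the means, and no fold is given. Prosbeta5R2 was not tested because it was seen in too few libraries.

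Testis markers followed the paralog reads only in part. The marker median over 24 genes (of 32 listed) was 37.2, 28.4 and 0.660 in control libraries 1, 2 and 3. It was 1.95, 12.2 and 20.6 in glia libraries 1, 2 and 4, and at most 4.34 in the neuron and both libraries. Control 1, control 2 and glia 4, with the highest medians, also had the highest paralog totals, at 91, 92 and 77 reads. Elsewhere the order differed. Glia 2 had 33 paralog reads, whereas neuron 1, both 2 and both 3, with marker medians of 2.66, 0 and 0.37, had 62, 53 and 54. No correlation was computed. The sum of the markers, carried by the head-expressed gene bol, ranged over 1765 to 2610 in control, 1327 to 2157 in glia, 1479 to 1641 in neuron and 1259 to 1557 in both. The sperm genes Mst87F, dj and ocn were at 86.8, 52.1 and 81.8 in control 1, and Mst87F and dj were at 0 in control 3. Not every marker differed so: fzo and mia were at 67.0 and 17.4 in control 1 and at 68.9 and 13.3 in control 3. No marker of the list was at 0 in control 1, control 2, glia 2 or glia 4, and 12 were at 0 in control 3. The part of testis RNA in the paralog reads was not tested.

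**Figure D5:**
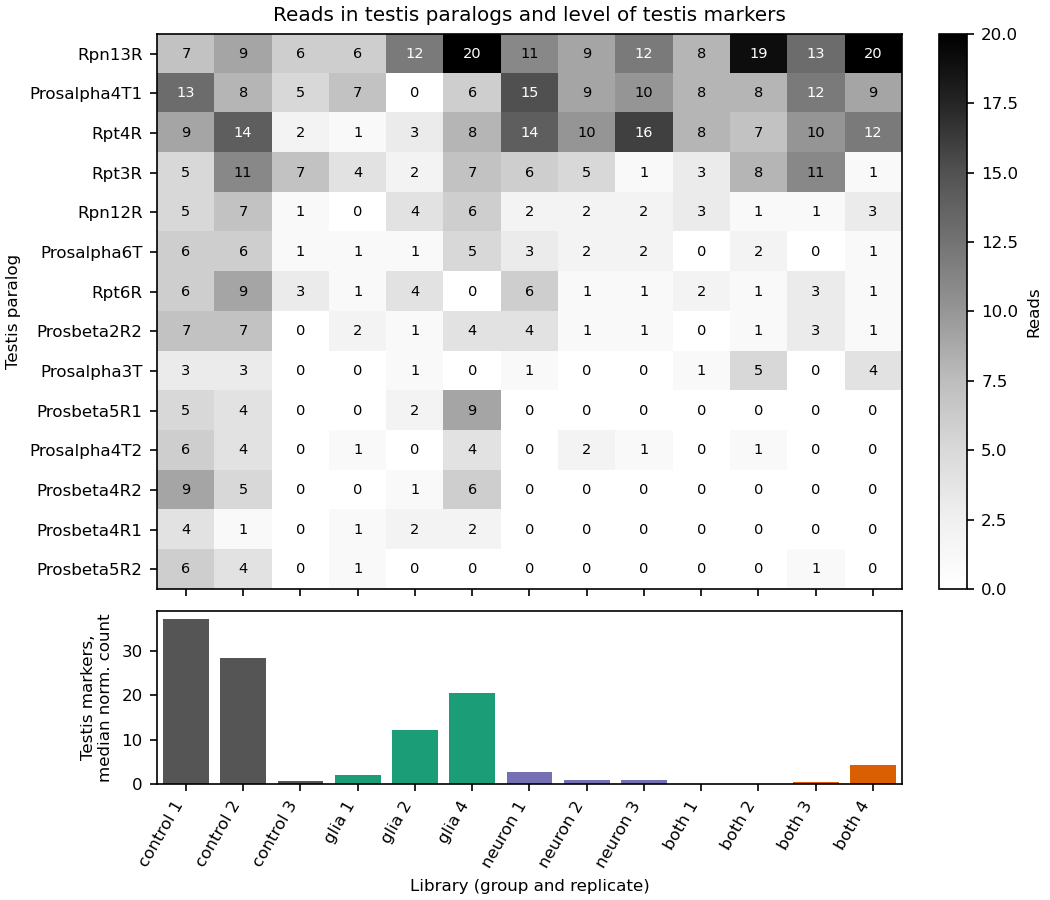
Reads of the 14 testis paralogs (rows) in the 13 libraries (columns), with the median normalised count of 24 testis markers below. Control 1, control 2 and glia 4 hold 260 of the 684 reads and the 3 highest marker medians (37.2, 28.4 and 20.6).

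Genes that build, regulate and feed the proteasome were set beside the subunits. Of 14 tested assembly factors and regulators, 2 (14.3%) fell with the neuronal transgene, against 7.66% of all genes. These were ntc (nutcracker), an F-box protein known for its role with the proteasome regulator PI31 in sperm maturation (log2 fold -0.68, adjusted p = 0.033), and CG5384, whose current symbol is Usp14, a deubiquitinase bound to the proteasome (-0.49, adjusted p = 0.0341). The counts of CG5384 were 155, 154 and 158 in control, 172, 274 and 142 in glia, 121, 129 and 121 in neuron and 112, 111, 144 and 118 in both, so that the neuron and both libraries lay below all others except glia 4, which both 3 exceeded. CG5384 also fell in both against glia (-0.64, adjusted p = 0.0491), as 1 of the 14 (7.14%) against 4.75% of all genes. Without glia 2 its folds were -0.35 with the neuronal transgene (adjusted p = 0.0231) and -0.37 in both against glia (adjusted p = 0.124). When each of the 13 libraries was left out in turn, CG5384 passed in 5 runs for the neuronal transgene and in 1 for both against glia, and ntc passed in 6 for the neuronal transgene, with adjusted p-values of up to 0.0825, 0.124 and 0.0723. cnc, a transcription factor that drives subunit genes in the fly, was at 1638, 1736 and 1822 in control and 1477, 1569 and 1513 in neuron (log2 fold -0.19, adjusted p = 0.396). The core assembly factor Pomp had a log2 fold of -0.16 with the neuronal transgene (adjusted p = 0.372).

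Among 10 genes of ubiquitin supply and shuttling, Npl4, a cofactor of the unfolding ATPase TER94, fell in both against glia (log2 fold -1.66, adjusted p = 0.048), which is 10.0% of the list against the same 4.75%. It passed in 4 of the 13 runs that left out a library, and without glia 2 it did not (-1.81, adjusted p = 0.0939). The glia libraries held 3744, 2303 and 2674 counts of Npl4 and the both libraries 439, 1624, 581 and 1594. The control libraries held 2743, 2708 and 4149.7 and the neuron libraries 1416, 4104 and 2495, of which neuron 1 was lower than 2 of the both libraries. Its log2 fold was -1.80 in both against control (adjusted p = 0.0858), and the ubiquitin gene Ubi-p5E had one of 0.22 there (adjusted p = 0.226). The conjugating enzymes and the COP9 subunits had no member past the threshold in any of the 9 contrasts. In the comparisons with control, of 11 ubiquitin-conjugating enzymes, Ubc6 (-0.44 in both against control, adjusted p = 0.124) and Ubc10 (0.29 in glia against control, adjusted p = 0.472) had the smallest p-values. Of 8 tested subunits of the COP9 signalosome, a relative of the lid, the smallest there were those of CSN5 (-0.33 in both against control, adjusted p = 0.277) and CSN8 (-0.43 in neuron against control, adjusted p = 0.439). Sem1, the small lid subunit Rpn15 that the symbol rule missed, was at 92.2 ± 16.2 (SD, n = 3) in control, 131 ± 40.6 (SD, n = 3) in glia, 96.4 ± 24.1 (SD, n = 3) in neuron and 98.4 ± 20.2 (SD, n = 4) in both.

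The subunits varied together across libraries. On the log2 scale and over 13 libraries that share their depth and their scaling, each of 31 subunits correlated with the mean of the others at r = 0.788 (Rpn13) to 0.962 (Prosalpha5), and without glia 2 at 0.423 (Rpn10) to 0.905 (Prosalpha2). Coefficients of variation ran from 12.8% for Rpt1 to 30.2% for Prosbeta4, and the 6 highest were all core subunits. Of the genes outside the members, TER94, the ATPase that extracts ubiquitinated proteins and hands them to the proteasome, followed the subunits most closely (r = 0.975, and 0.913 without glia 2). TER94 was at 1102, 1069 and 1168 in control, 1112, 1608 and 1076 in glia, 974, 997 and 1004 in neuron and 1039.7, 931, 1054 and 977 in both. The next were CG17018 (0.961), ana3 (0.956), His2B:CG33908 (0.948) and Hmt-1 (0.943), with 0.882, 0.862, 0.874 and 0.806 without glia 2. These 4 were also highest in glia 2: CG17018 was at 606 there and at 12.8 to 105 elsewhere.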

How the data were processed

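RNA of pooled fly heads was sequenced as stranded, ribosomal RNA-depleted paired-end libraries, per the labels' protocols. The tools STAR, Salmon and featureCounts, DESeq2, FastQC and MultiQC are listed in the submitters' processing notes, with no versions, beside the build BDGP6. The deposited values, adjusted counts per the file headers, are a signal: each is 1 plus whole reads times a factor of its column. After subtracting the offset of 1, 100% of values were whole reads within 0.01 in every library, and libraries held 2808960 to 4767799 reads. How the 12286 genes of the table were chosen is not given in the sources used here, nor is the strand setting of the counting.

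Tests used limma 3.58.1 in R 4.3.3 on log2(normalised count + 1), with intensity trend, over 12181 genes with at least 1 normalised count in at least 4 libraries; 105 genes were removed. Folds are on that scale, which understates changes of low genes. All 13 libraries of the 4 groups entered 1 fit without batch, for 9 contrasts: all pairs, each transgene present against absent, and their interaction. P-values were Benjamini-Hochberg adjusted over all genes, with a threshold of 0.05. The procedure was tested on simulated data. Python 3.11.15 was used for descriptions. Positions are those of the BDGP6 annotation of Ensembl release 115, in which all 46 member IDs were found. Lengths are the union of annotated exons.

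Per the labels, the replicate number is a batch, so it pairs samples across groups. Deviations from group means correlated at a median of 0.07 over 16 pairs of the same batch, 5 of them above 0.1, and at -0.016 over 47 pairs of different batches. A fit with the batch as a block is an alternative.

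The members and lists were chosen with earlier results of these data known. Genes were named by rule: members past the threshold, the 2 constitutive subunits with the smallest p in each comparison, Prosbeta1, Prosbeta2, Prosbeta5, Rpn11, the 3 highest and 3 lowest per length, every testis paralog, list members past the threshold or with the 2 smallest p-values against control, and the 5 genes most correlated with the constitutive mean. Other members named complete their class. Searches for promoter motifs were planned and not run, since no promoter sequence was used here.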

Additional observations from a re-analysis of the deposited data

Results flagged for a closer look

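The both group was the only group large enough for a search for a library far from the others. Over its 4 libraries 46 quantities were searched, and 4 held such a library. Chance gives about 1 in 20, but the quantities share their libraries and are not independent. Prosalpha7 was highest in both 3, at 176 normalised counts against 159 to 160.2 in the other both libraries. Rpn5, a lid subunit, was lowest in both 2, at 191, against 242 to 252 in the others. The paralogs Prosalpha4T2, at 0.85 in both 2, and Prosbeta5R2, at 0.74 in both 3, had 1 read there and none in the other both libraries. A single read among libraries without any is always flagged, so the chance rate does not apply to these paralogs.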

How the results depend on the processing

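Counts of members past the threshold changed with the setting more than the folds did. They are given without the share of all genes passing under each setting, so they show only how calls moved. In both against glia, 2 members passed, but 1 passed with a pseudocount of 0.5, with a pseudocount of 5 and with voom, and 0 in a fit of the groups compared only and without control 1 and glia 2. With the neuronal transgene, 0 of the 5 passed without control 1 and glia 2. When single libraries were left out, counts ranged from 0 to 2 in both against control, 0 to 9 in both against glia, 0 to 5 in glia against neuron and 0 to 11 with the neuronal transgene. Of the 2 and the 11, 1 and 2 were testis paralogs with no read on the lower side, whose p-values carry no weight. Centring libraries on the neuron markers moved the median log2 fold of the constitutive subunits to -0.576 in neuron against control, -0.693 in both against control, -1.031 in both against glia, 0.903 in glia against neuron, -0.783 with the neuronal transgene and -0.441 in the interaction. It passed 1 member in both against control, 30 in both against glia and 37 with the neuronal transgene. These counts are not a result about the members, since the shift was shared with all genes. By construction centring moved all genes together, to medians of -0.578 with the neuronal transgene and -0.708 in both against glia. The subunit medians relative to these were -0.205 and -0.323 under both scalings. With the replicate block, which pairs the samples by batch, 6 members passed with the neuronal transgene and 2 in both against glia, where Prosbeta1 left and Rpn13 entered, and no other call of a member changed. Prosalpha1 with the neuronal transgene reversed to -0.41 when summed with CG30382. Of 9247 values of single genes under alternatives, 9077 kept their side of the threshold and, where either value passed it, their direction. Direction was not compared where neither value passed. Voom, the offset kept, the copies summed, the pair of libraries left out and the runs on ntc, CG5384, Npl4 and the summed copies were chosen after the data had been seen. edgeR and DESeq2 were planned and not run, with voom on the whole reads in their place, and a fit of the groups compared only does not apply to the pooled contrasts and the interaction. Depth limits the testis paralogs, which had at most 20 reads in a library.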
